A study of Bos taurus with 25 samples.

Results

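The cytosolic ribosomal protein genes were followed across liver and mammary gland biopsies of lactating dairy cows. A probe was counted as a member if its RefSeq accession belongs to a gene whose symbol starts with RPL or RPS and a digit, or is RPLP0, RPLP1, RPLP2 or RPSA. The kinase genes of the RPS6K family and the symbols RPL22L1 and RPL26L1, 10 names in all, were left out. This gave 78 genes with 249 probes, out of 27841 genes or names with 43653 probes on the array. They hold 40 proteins of the large subunit, 30 of the small subunit, the 3 proteins of the stalk (RPLP0, RPLP1 and RPLP2), 4 paralogs (RPL3L, RPL36AL, RPS27L and RPS4Y1) and RPS19BP1, which carries the prefix but is a binding protein of RPS19 and not a subunit. A gene has the mean of its probes as its level, 10 members have 1 probe, and RPL15 has the most, with 8.

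Control cows (Ctl) received a weekly intramuscular injection of 5 mL of saline (0.9% NaCl). The weekly dose was 320 mg of folic acid in the B9 group, 10 mg of cyanocobalamin in the B12 group and both in the B9 + B12 group. All cows were sampled 64 ± 3 days after calving, and each array held the RNA of 1 cow. The liver gave 12 arrays (3 Ctl, 3 B9, 4 B12 and 2 B9 + B12) and the mammary gland 13 (3 Ctl, 3 B9, 4 B12 and 3 B9 + B12), and 12 of the 13 cows gave both tissues. A biopsy holds several cell types, so that fewer cells of a type and less RNA per cell cannot be told apart.

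Ribosomal proteins are assembled with ribosomal RNA in the nucleolus into the small subunit, which decodes the messenger RNA, and the large subunit, which joins the amino acids. Their messenger RNAs start with a tract of pyrimidines through which mTOR signalling controls their translation, and their genes are known for moving together, since a ribosome needs 1 copy of nearly every protein. The lactating mammary gland secretes large amounts of casein and whey proteins, and the liver makes most proteins of the plasma.

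Every one of the 249 member probes was well above background on all 12 liver arrays, and 247 were so on all 13 mammary arrays. The exceptions were both probes of RPL3L, which were well above background on 4 and 1 of the 13 mammary arrays. No member probe was saturated. The signal over background ranged from 2.30 to 10.5 in the liver, and from 2.92 to 5.06 in the mammary gland, and the arrays of a tissue correlated at 0.964 or above over all genes. The 7 hepatocyte markers measured were all lower in the mammary gland and the 7 markers of mammary epithelium all higher, as the labels have it. On the quantile scale the 6 fibroblast markers were all higher in the mammary gland (median 1.62) and the 5 macrophage markers all lower (−1.63), and the part of cell makeup in the ribosomal protein values was not tested.

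The first question was whether the ribosomal protein genes differ between the tissues. With all 25 arrays brought to the same distribution of intensities (quantiles), 76 of the 78 members were higher in the mammary gland at an adjusted p of at most 0.05 (limma, Benjamini-Hochberg over all genes), 97.4% of them against 36.8% of all genes, whereas on the values deposited, which were normalized within each tissue, 1 member was higher (1.28% against 8.25% of all genes) and 69 were lower (88.5% against 80.8%). On the quantile scale RPL3L alone was higher in the liver (1.28% of members against 25.1% of all genes) and RPS27L was not called. The difference reached 2-fold for 37 members, 47.4% against 11.1% of all genes. The 40 large subunit genes, the 30 small subunit genes and the 3 stalk genes were all among those higher on the quantile scale, with median log2 differences of 1.00, 0.99 and 0.84. The median over the 78 members was 0.99 on the log2 scale, and it was 0.0518 over all genes. The lowest mammary array lay above the highest liver array for 64 members (82.1% against 15% of all genes), and the reverse held for 1 (1.28% against 11.7%). Within single cows, the median difference of the members lay between 0.776 (cow 32) and 1.21 (cow 36), with an SD of 0.125 over 12 cows. Slides 2, 3, 5 and 7 held arrays of both tissues, and the member median within them was 0.87, 1.27, 1.14 and 1.06, while with the slide as a fixed block it was 1.10 over all arrays (quantile scale).

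**Figure D1:**
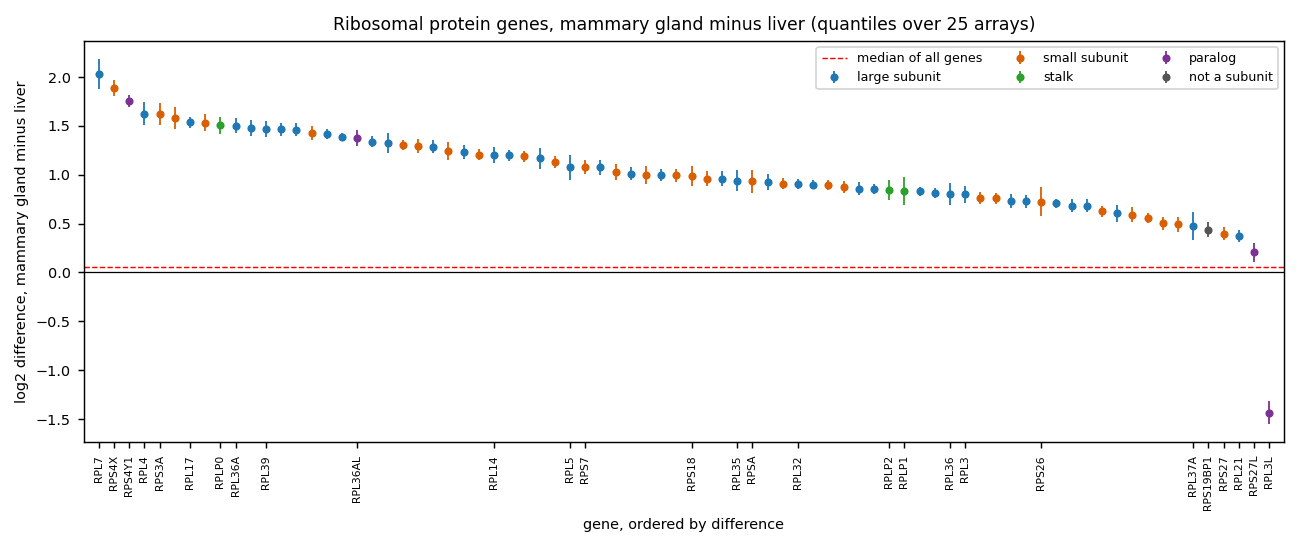
Log2 difference between mammary gland and liver (mammary gland minus liver, all 25 arrays on the quantile scale) of each of the 78 genes, ordered by size and labelled where a rule named the gene, with the standard error of the limma fit as bars and the median of all genes as a dashed line. RPL7 lies highest at 2.03 and RPL3L lowest at −1.43, a value set against a mammary level mostly at background, and on the deposited values, normalized within each tissue, 69 members (88.5%, against 80.8% of all genes) lie below 0 with an adjusted p of at most 0.05.

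The size and the direction of this difference moved with the scaling, so that each was set against the median of all genes. Scaled by the 75th percentile of each array, the member median was 0.70, and 68 members were higher, but the median of all genes was 0.79 and 71.2% of all genes were higher. With the background-subtracted processed signal scaled the same way, these values were 0.78, 71 members, 0.58 and 56.2%. On the deposited values the member median was −0.55 beside −0.48 for all genes, of which 80.8% were lower in the mammary gland. Relative to the median of all genes, the members were thus 0.94 and 0.96 higher in the quantile scalings (offsets 16 and 50), 0.21 higher with the processed signal, and below it by the 75th percentile (−0.085) and on the deposited values (−0.075).

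The rank of a gene among all genes of its own array does not depend on how arrays are scaled. The median rank of the 78 members, in percent from the dimmest gene, was between 99.0% and 99.3% on the liver arrays and between 99.5% and 99.6% on the mammary arrays, so that the tissues did not overlap. The ranks of 64 members were higher on every mammary array than on any liver array, 82.1% against 14.1% of all genes, and those of 1 member, RPL3L, were lower, 1.28% against 12.1%. By limma on the ranks, 26 members were higher at an adjusted p of at most 0.05, 33.3% against 34.3% of all genes. With median ranks of 99.0% and above, the members had little room to rise. The limma count alone therefore does not decide whether their ranks differ between the tissues. A rank here serves to scale a gene against its array and does not compare the level of 1 gene with that of another.

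The cytosolic members were also set against the ribosomal proteins of mitochondria. Of the 75 genes of the mitochondrial ribosome (symbols MRPL and MRPS), 11 were higher and 43 lower in the mammary gland on the quantile scale, with a median of −0.34. Their median minus that of the cytosolic members was −1.33 and −1.31 in the quantile scalings, −1.16 and −1.29 in the 75th percentile scalings and −1.18 on the deposited values. A shift common to all genes of an array cancels in this difference, so that scalings of that kind leave it in place by construction. The medians of the other translation lists were between these on the quantile scale, where 36.8% of all genes were higher and 25.1% lower. Elongation factors were higher for 5 of 6 genes (median 0.65), and initiation factors, which bring the subunits to the messenger, were higher for 19 and lower for 2 of 29 (median 0.47). Genes of ribosome assembly were higher for 11 and lower for 4 of 29 (median 0.11), a share of 37.9% higher. On the deposited values, none of the elongation factors and assembly genes and 1 initiation factor was higher, while 6, 29 and 27 were lower. On the quantile scale FAU, which encodes a subunit fused to a ubiquitin-like protein, and RACK1, a scaffold on the small subunit, were higher, at 1.25 and 0.31, and neither was so on the deposited values.

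**Figure D2:**
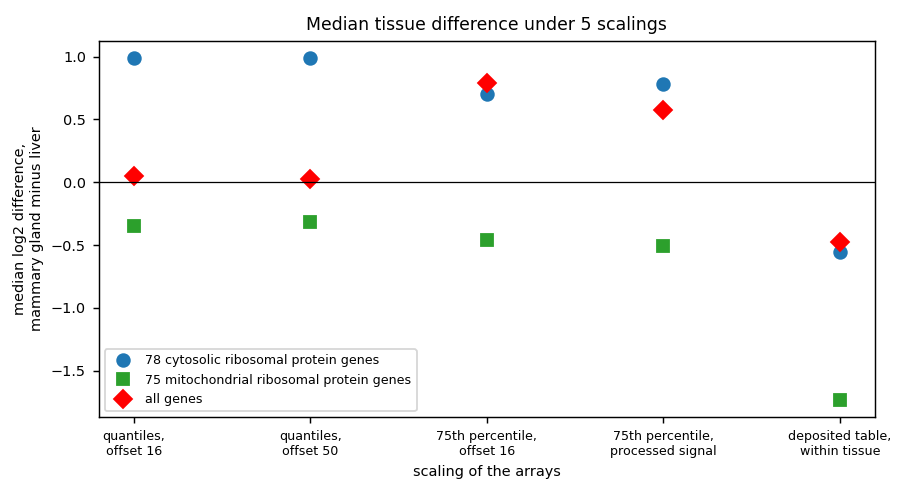
Median log2 difference, mammary gland minus liver, of the 78 cytosolic members (circles), of 75 mitochondrial ribosomal protein genes (squares) and of all genes (diamonds) under 5 scalings of the arrays. The member median is 0.99 with quantiles and −0.55 on the deposited values, while the squares lie below the circles in each of the 5, by −1.33 to −1.16.

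Of the 5 largest differences on the quantile scale, 5 were shared with offset 50, 3 with each of the remaining scalings and 2 with ranks, and of the 5 smallest, 5, 4 and 2 were shared. RPL7 and RPS4X, proteins of the large and of the small subunit, had the largest and second largest differences of all members under each of the 5 scalings, and RPS27L and RPL3L the smallest. RPL7 had a level on the quantile scale of 12.2, 13.6 and 14.1 (lowest, median and highest of 12 liver arrays) and of 15.3, 15.5 and 15.6 in the 13 mammary arrays. Its difference of 2.03 ± 0.15 (SE, adjusted p = 1.22e-10) was positive in 12 of 12 cows, and 6 of its 7 probes gave between 2.09 and 2.29, the other 1.28. RPS4X had levels of 13.4, 13.7 and 14.2 in the liver and of 15.4, 15.6 and 15.9 in the mammary gland, a difference of 1.89 ± 0.08 (SE, adjusted p = 1.19e-14). The liver and mammary arrays did not overlap for either gene. Relative to the median of the members, RPL7 was higher by 0.92 to 1.04 and RPS4X by 0.70 to 0.90 across the 5 scalings.

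RPS4Y1, RPL4 and RPS3A followed on the quantile scale, with differences of 1.76 ± 0.06, 1.62 ± 0.12 and 1.62 ± 0.11 (SE). RPL4 is a protein of the large subunit whose extension lines the tunnel through which the new peptide leaves. RPS4Y1 is encoded on the Y chromosome in humans, whereas the RefSeq table for cattle places the gene under this symbol on an autosome, and it was measured in all of these cows. At the other end, RPL21 (0.37 ± 0.06), RPS27 (0.40 ± 0.06) and RPS19BP1 (0.44 ± 0.08) had the smallest differences among the members called higher. RPS19BP1 had a difference of −0.11 with an adjusted p of 0.38 when arrays were scaled by the 75th percentile.

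The stalk recruits the elongation factors to the ribosome. RPLP0, its anchor, had levels of 13.7, 14.1 and 14.7 (lowest, median and highest) in the liver and of 15.4, 15.6 and 15.8 in the mammary gland on the quantile scale, a difference of 1.51 ± 0.09 (SE, adjusted p = 1.47e-12). The acidic proteins that bind to it differed less, RPLP1 by 0.83 ± 0.14 and RPLP2 by 0.84 ± 0.11 (SE), and the mammary and liver arrays of RPLP1 overlapped. RPSA, a small subunit protein also known as the laminin receptor, differed by 0.93 ± 0.11 (SE, adjusted p = 3.19e-07).

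The paralogs did not move as a group. RPL3L, a paralog of RPL3 known from striated muscle, was the only member higher in the liver on the quantile scale, with levels of 5.98, 6.44 and 7.54 in the liver and of 5.04, 5.16 and 5.33 in the mammary gland. With its 2 probes well above background on only 4 and 1 of the 13 mammary arrays, the mammary level is mostly one at background, and the difference of −1.43 ± 0.12 (SE, adjusted p = 4.78e-10) is no exact size. It was negative in 12 of 12 cows, and its size moved with the background correction and scaling, from −0.76 to −3.07. RPL3 itself was 0.80 ± 0.09 higher in the mammary gland. RPS27L, a paralog of RPS27 known as a target of p53, had a difference of 0.20 ± 0.10 (SE, adjusted p = 0.0709), with 8 of 12 cows higher in the mammary gland. Its 2 probes gave −0.075 and 0.48, and only 1 of them was called higher. RPL36AL, which differs from RPL36A in its gene but hardly in its protein, was 2.59-fold higher beside 2.83-fold for RPL36A. Transcripts of near-identical paralogs can share a probe, and no probe sequence was used here to tell them apart.

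Most genes with several probes gave 1 answer. Of 68 members with 2 or more probes, 62 had all of them called in the same tissue direction on the quantile scale and none had probes called in opposite directions. RPS26, a protein at the exit of the messenger channel, had the widest range, with 4 of 6 probes higher by 1.04 to 1.29 and the other 2 at −0.20 and −0.16, with adjusted p of 0.348 and 0.48. RPLP1 and RPL7 followed, with ranges over probes of 1.03 and 1.02.

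The next question was whether the vitamin supplements changed the ribosomal protein genes. On the deposited log2 values, no member was called in any of the 6 comparisons with Ctl (limma, adjusted p of at most 0.05 and 2-fold), and of all genes 1 was called, in the liver under B12 (0.00359%), and 0% in the other comparisons. At an unadjusted p below 0.05, 1 member was counted in each of the liver comparisons, RPSA under B9 (1.28% of members against 3.27% of all genes), RPL3L under B12 (1.28% against 1.97%) and RPS21 under B9 + B12 (1.28% against 5.87%). No member was counted in the mammary gland, where 2.68%, 2.44% and 2.05% of all genes were. Cyber-T, the test named in the methods, called no member in any comparison at the same thresholds. Of all 27841 genes it called 2, 37 and 27 in the liver (B9, B12 and B9 + B12). In the mammary gland it called 3, 9 and 7. The interaction of B9 with B12 was not called for any member in either tissue, nor was any counted at an unadjusted p below 0.05 (3.57% of all genes in the liver, 3.46% in the mammary gland).

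**Figure D3:**
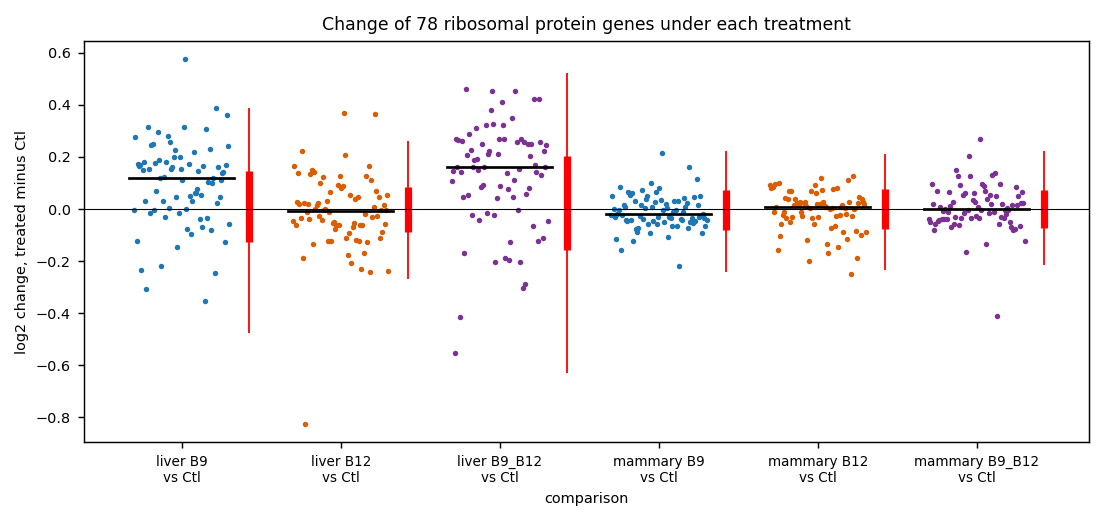
Log2 change against Ctl of each of the 78 genes in the 6 comparisons (points, deposited values), with the member median as a black line. The red bars to the right span the middle 50% (thick) and 90% (thin) of all genes, and no point has an adjusted p of at most 0.05.

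In the liver, the members lay to the positive side under B9 and B9 + B12. Their median log2 change was 0.12 under B9 (all genes 0.0156), with 57 of 78 above 0, 73.1% against 53.4% of all genes. Under B9 + B12 the median was 0.16 (all genes 0.0275), with 59 above 0, 75.6% against 54.6%, and 21 members had both treated arrays above all 3 Ctl arrays, 26.9% against 12.5% of all genes. Under B12 the median was −0.0076 with 34 above 0, 43.6% against 50%. Scaled by the 75th percentile, 73, 24 and 74 members lay above 0 under B9, B12 and B9 + B12, against 52%, 22% and 75.9% of all genes, and with the processed signal 73, 18 and 73 against 53.6%, 43.9% and 60.7%. These 3 comparisons share their Ctl arrays. Few other members separated from Ctl in the liver, with 1 higher (4.14% of all genes) and 0 lower (4.29%) under B9, 0 higher (2.44%) and 3 lower (2.69%) under B12, and under B9 + B12 1 was lower (9.67%). In the mammary gland the medians were −0.018 under B9, 0.0078 under B12 and −0.00095 under B9 + B12, and 32, 45 and 39 members lay above 0 (41%, 57.7% and 50% against 49.5%, 50.1% and 49.2% of all genes). Scaled by the 75th percentile, 71, 71 and 72 mammary members lay above 0 against 18%, 19.4% and 18.8% of all genes, and with the processed signal 27, 61 and 33 against 42.9%, 58.3% and 53.7%. The mammary groups separated from Ctl for 0 members higher (3.71%) and 0 lower (3.38%) under B9, 1 higher (2.28%) and 0 lower (1.72%) under B12, and 0 higher (3.54%) and 3 lower (3.62%) under B9 + B12.

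The positive liver medians rested in large part on cows 57 (B9) and 32 (B9 + B12). Without these 2 liver arrays, the median was 0.038 under B9 and 0.083 under B9 + B12. Blocking on the slide gave medians of 0.40 under B9 and 0.20 under B9 + B12. Cow 57, on slide 4, was the only B9 liver array that shared a slide with liver arrays of other groups. Against the single Ctl array of that slide its member median was 0.34. For B9 + B12, the arrays of slide 4 gave 0.11 and those of slide 8 gave 0.27. Cows 32 and 57 were singled out after the member values were seen. An excess of members above the other 10 liver arrays is therefore in part given by that choice. For 38 of the 78 members (48.7%, against 17.5% of all genes), both cows had a level above all 10 other liver arrays, and for 10 (12.8%, against 16.4%) a level below all of them. RPL39, RPS18 and RPS19 were among the former. RPL7, RPL5, RPS3A and RPL26 were among the latter, with RPL7 at 13.1 in cow 32 and 13.6 in cow 57 against 14.3 to 15.0 in the other 10 (deposited values). These 2 arrays stood apart over all genes too, holding the highest liver value of 21.2% (cow 32) and 20.9% (cow 57) of them. Their signal over background was 2.30 and 5.33 beside a liver median of 6.98, and that of cows 37 and 43, which did not stand apart in this way, was 3.23 and 3.58. Cow 32 was also 1 of the 3 liver arrays scanned on the second of 2 scan days, without which the B9 + B12 median was 0.071. The part of these differences in the member values was not tested.

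No marker of another cell type was called in a liver comparison. In the liver, the mean log2 level of 7 lymphocyte and plasma cell markers was 8.60 in cow 32 and 8.17 in cow 38 (B9 + B12) beside 7.30 to 8.07 in the 3 Ctl arrays, and all 7 markers lay above 0 in that comparison, with none called. Of the fibroblast markers 5 of 6 lay above 0 (median 0.31) and of the macrophage markers 4 of 5 (median 0.24), also with none called. The mean level of 7 mammary epithelium markers, milk proteins among them, was 7.36 to 7.55 in the liver Ctl arrays, 7.62 to 8.86 under B9, 7.03 to 9.76 under B12 and 7.95 to 8.07 under B9 + B12. Their part in the ribosomal protein values was not tested.

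Of the single genes, RPSA had the largest positive change in several comparisons. Its liver levels (deposited values) were 12.96, 13.73 and 13.79 in Ctl, 13.61, 14.14 and 14.47 under B9, 13.69, 13.81, 13.87 and 14.07 under B12 and 13.68 and 13.95 under B9 + B12. The low Ctl value of cow 43 set it apart, and the groups otherwise overlapped. The change was 0.58 ± 0.25 under B9 (SE, unadjusted p = 0.0438, adjusted p = 0.882) and 0.37 ± 0.24 under B12 (SE, adjusted p = 1.00), and without Ctl cow 43 these were 0.31 and 0.10. In the mammary gland RPSA had the largest positive change under B9 (0.22 ± 0.21) and B9 + B12 (0.27 ± 0.21) and the second largest under B12 (0.12 ± 0.20), each with an adjusted p of 1.00. Without cow 57 the change under B9 was 0.013, and without Ctl cow 43 the changes under B12 and B9 + B12 were 0.013 and 0.16. Its 3 mammary Ctl levels were 12.46, 12.52 and 13.02, and cow 43 was again the lowest of them.

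RPL14 had the second largest positive liver change under both B9 (0.39 ± 0.20) and B12 (0.37 ± 0.19), with a Ctl value of 14.58 in cow 51 and of 15.27 in both other Ctl cows. Without cow 51, RPL14 was 0.16 and 0.14. RPL3L had levels of 6.97, 7.08 and 8.10 in the liver Ctl arrays and of 6.34, 6.49, 6.64 and 6.75 under B12, so that the groups did not overlap, and the change was −0.83 ± 0.33 (SE, unadjusted p = 0.0281, adjusted p = 1.00), and −0.47 without Ctl cow 42. RPL3L also had a low value under B9 (−0.31 ± 0.35, and 0.053 without Ctl cow 42), as did RPS3A (−0.35 ± 0.27), which was −0.042 without cow 57, and RPL17 had one under B12 (−0.24 ± 0.12). Under B9 + B12, RPS18 (0.46 ± 0.27) and RPL39 (0.45 ± 0.22), which lies in the peptide exit tunnel, had the largest positive changes, and without cow 32 they were 0.27 and 0.30. RPL7 (−0.55 ± 0.46) and RPL5 (−0.42 ± 0.34), which binds MDM2 when it is free of the ribosome, had the most negative ones, and both rested on cow 32, without which they were 0.29 and 0.17.

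The largest values in the mammary gland were smaller. RPL37A (−0.22 ± 0.22) and RPS7 (−0.16 ± 0.12) were the most negative under B9 and RPL36 was 0.16 ± 0.14. RPL35, a protein at the tunnel exit, was 0.13 ± 0.16 under B12, where RPS27L (−0.25 ± 0.14) and RPLP1 (−0.20 ± 0.20) were the most negative. Under B9 + B12, RPL37A was −0.41 ± 0.22 and RPL32 −0.16 ± 0.09, and RPS26 was 0.21 ± 0.24 (all SE). Each of these had an adjusted p of 1.00, and single arrays moved them: RPL37A under B9 + B12 was −0.15 without cow 32, RPS26 was 0.034 without cow 38 and 0.44 without cow 32, and RPLP1 under B12 was −0.058 without cow 52 and −0.41 without Ctl cow 43.

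The other genes of translation were not called in any treatment comparison either. Mitochondrial ribosomal proteins had liver medians of 0.15 under B9, 0.10 under B12 and 0.084 under B9 + B12, with 55, 65 and 48 of 75 above 0, and genes of ribosome assembly lay above 0 for 19, 27 and 18 of 29, beside 53.4%, 50% and 54.6% of all genes. Initiation factors had medians of −0.027, 0.030 and −0.11 in the same order. The change against Ctl did not differ between the tissues for any member at an adjusted p of at most 0.05. At an unadjusted p below 0.05, 0, 1 and 6 members were counted under B9, B12 and B9 + B12 (0%, 1.28% and 7.69%, against 2.46%, 1.81% and 4.54% of all genes). The 6 were RPL11, RPL32, RPL37, RPS15A, RPS19 and RPS21, each with a smaller change in the mammary gland than in the liver and an adjusted p of 0.792.

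Differences between cows were shared by the members within a tissue. The mean correlation between pairs of members over the arrays, after subtracting the group means, was 0.19 among liver arrays and 0.36 among mammary arrays, beside 0.0044 and 0.00076 for all genes and 0.12 and 0.095 for the mitochondrial ribosomal proteins. All genes of an array share its depth and labelling, and these values are a description. Cows 57 and 41, both of the B9 group, lay farthest apart in both tissues. The median deviation of the members from their tissue mean was 0.25 for the liver and 0.17 for the mammary gland of cow 57, and −0.14 and −0.17 in cow 41. Cow 57 held the highest mammary value of 42 members (11.8% of all genes) and cow 41 the lowest of 42 (5.94% of all genes), while the other 11 mammary arrays had median deviations between −0.05 and 0.03.

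**Figure D4:**
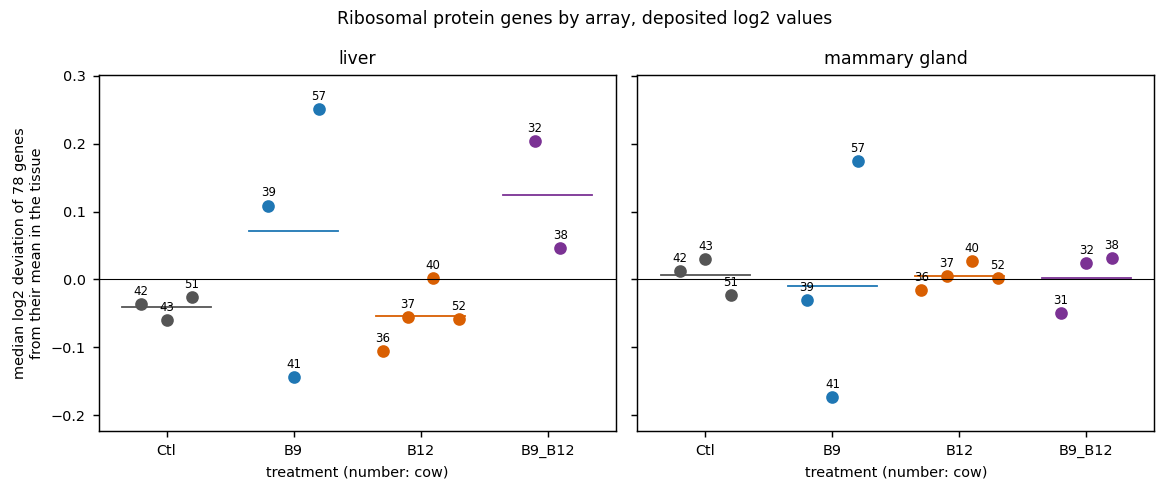
Median deviation of the 78 members from their mean in the tissue, on the deposited log2 scale, for each array, with the cow numbers above the points and group means as lines. Cow 57 is the highest and cow 41 the lowest array in both tissues, and both belong to the B9 group.

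Liver and mammary values of a cow were also set against each other. Over the 12 cows with both tissues, the deviations of the member median from the group mean correlated at 0.85 (Pearson) and 0.31 (Spearman). Without cows 41 and 57 these values were −0.24 and −0.19, so that the relation rested on those 2 cows. Gene by gene, 35 members had a correlation above 0.5, against 10.5% of all genes, and 18 of 78 against 14.9% in the 9 cows outside the B9 group. Over all 12 cows RPL21 (0.88) was among the highest values and RPL30 (−0.64) was the lowest.

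Several probes of the members differed by slide. A slide held between 2 and 4 of the arrays, and the 8 slides were numbered in the order of their identifiers. In both tissues, 13 member probes of 13 genes (of 249, 398 of 43653 over all probes, 0.912%) were lower on every array of slides 1, 3 and 5 than on any array of the other slides of the same tissue, and none was higher (0.0619% of all probes). These slides were singled out after the values were seen. A probe of RPS26 lay between 10.0 and 10.5 on the 4 liver arrays of slides 1, 3 and 5 and between 12.1 and 13.2 on the other 8, and in the mammary gland between 11.5 and 12.1 on 5 arrays and between 14.0 and 14.4 on 8 (quantile scale). A probe of RPL4 lay between 6.32 and 6.57 and between 7.93 and 8.97 on the same liver arrays, and between 7.02 and 7.69 and between 9.58 and 10.3 in the mammary gland. Probes of RPLP1 and RPL5 differed by −2.03 and −1.78 between these sets of slides for the liver, and by −1.35 and −2.18 for the mammary gland. The others, probes of RPS18, RPL3, RPL9 and RPS6 among them, had smaller differences.

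**Figure D5:**
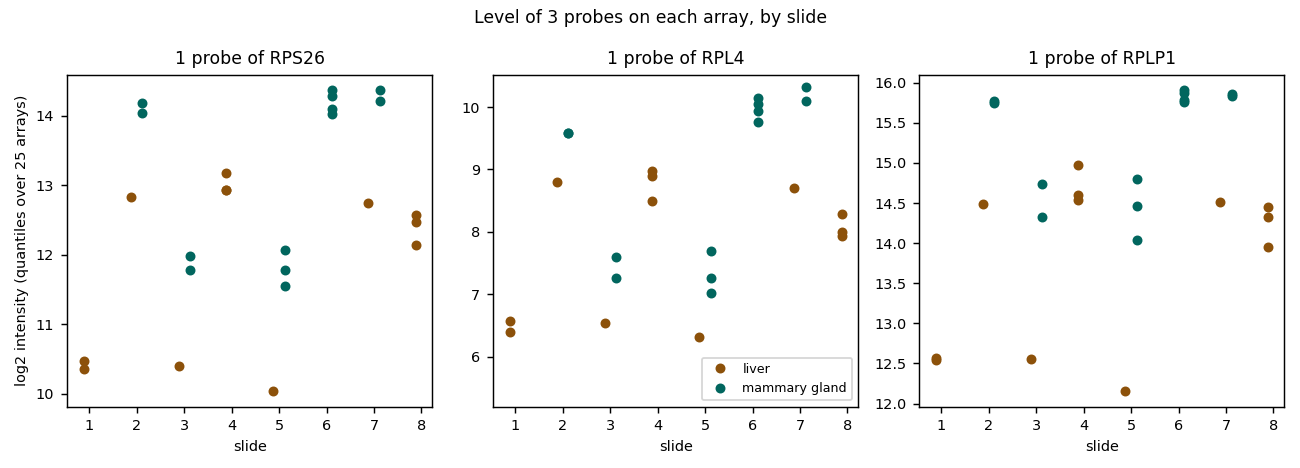
Log2 intensity (quantile scale) of 1 probe each of RPS26, RPL4 and RPLP1 on the 25 arrays, placed by slide number and coloured by tissue. On slides 1, 3 and 5 every array of a tissue lies below all arrays of the same tissue on the other slides.

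The residual SD over the group means was largest for RPL7 (0.57), RPL3L (0.48) and RPLP1 (0.45) in the liver and for RPS26 (0.32), RPL4 (0.31) and RPL37A (0.30) in the mammary gland, with a member median of 0.20 and 0.14 beside 0.22 and 0.16 for all genes. Slides 1, 3 and 5 were chosen on probes of RPLP1, RPS26 and RPL4, so that a lower spread of these genes with the slides in the fit is given by that choice. With slides 1, 3 and 5 against the others as a term, the residual SD was 0.17 for RPLP1 in the liver, 0.13 for RPS26 and 0.20 for RPL4 in the mammary gland, while it was 0.60 for RPL7 and 0.48 for RPL3L in the liver and 0.24 for RPL37A in the mammary gland. Each group held arrays of both sets of slides except the B9 + B12 liver arrays, which both lay on the other slides. With this term in the fit no member was called in any treatment comparison, and 76 members were again higher in the mammary gland on the quantile scale. In the fits without the term, 36.8% of all genes were higher, and at most 1 gene was called in a treatment comparison.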

How the data were processed

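RNA of 12 liver and 13 mammary gland biopsies was hybridised in 1 colour to Agilent bovine arrays. The deposited scanner files, written by Agilent Feature Extraction, hold the intensity of each spot and its local background, not normalized between arrays. The authors deposited a table of log2 values after background correction and normalization within each tissue, which differed from normexp (offset 16) and quantiles on the median intensity by 0.0018 (liver) and 0.00095 (mammary gland) at the median.

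Treatments were compared on the deposited log2 values within each tissue, and tissues on normexp (offset 16) and quantiles over all 25 arrays. Probes were named through RefSeq (53.85% of 43653 matched a symbol; build not that of the array) and averaged per gene. The tests were limma 3.58.1 in R 4.3.3, all groups in 1 fit, with Benjamini-Hochberg adjustment over 27841 genes, and Cyber-T (window 101, confidence 10) as an alternative. The code was tested on simulated data. Named genes were the stalk, RPSA, paralog pairs and RPS19BP1, the 5 largest differences each way between tissues, the 2 largest each way per treatment, the 3 with the largest residual SD per tissue and the 3 with the widest range over probes. Members and lists were chosen with earlier results of these data known.

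The cow pairs the tissues. Its liver and mammary arrays, each less its group mean, correlated at −0.28 to 0.18 over all genes (above 0.1 in 3 of 12 cows), and the cow was tried as a random and as a fixed block. Other alternatives were offset 50, 75th percentile scaling, the processed signal, the brightest probe, filters on dim and saturated probes, array weights, 2 groups alone, slide blocks and each array left out. The number of arrays limits the precision. Per-sample columns not used numbered 0. The quantitative PCR was not analysed here.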

Additional observations from a re-analysis of the deposited data

Results flagged for a closer look

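In the B12 groups, the only ones with 4 arrays, 1 array lay apart from the other 3 (Dixon's test) for 4 values of 56 tested among the genes named, and chance alone gives about 1 in 20 such groups. RPL21 was 16.60 in the liver of cow 36 beside 16.84 to 16.88 in the other 3 cows. In the liver of cow 52, RPL36 was 15.57 beside 15.94 to 15.98 and RPS27L was 12.18 beside 11.68 to 11.73. RPL37A was 13.60 in the mammary gland of cow 36 beside 12.99 to 13.04 in the others. All are deposited log2 levels.

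RPL32 lay above every Ctl array under B9 + B12 in the liver (change 0.22) and below every Ctl array in the mammary gland (−0.16). The difference of the 2 changes, on the quantile scale, was −0.37 ± 0.15 (SE), with an unadjusted p of 0.0255 and an adjusted p of 0.792 in limma.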

How the results depend on the processing

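No member was called in any treatment comparison, for the interaction or for the difference between tissues of a treatment effect, under any alternative run, Cyber-T included. With the cow as a random replicate block the member median between tissues was 0.99 and with 12 cows and the cow as a fixed replicate block 0.99, and the block changed no call of a count. On the deposited table, 1 member was higher and 69 lower in the mammary gland (median −0.55), beside 8.25% and 80.8% of all genes (median −0.48). The median was 0.70 by the 75th percentile, 0.78 with the processed signal and 0.87 with the brightest probe, and 26 members were higher by rank within each array, an alternative chosen after seeing the data. Leaving out each array gave 76 to 77 members higher, 1 lower and medians of 0.94 to 1.03. With all arrays in, 36.8% of all genes were higher and 25.1% lower.

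The liver medians under B9 and B9 + B12 were 0.34 and 0.50 by the 75th percentile (all genes 0.0090 and 0.23) and 0.34 and 0.52 with the processed signal (all genes 0.026 and 0.15), and 0.40 under B9 with the slide as a fixed block. By the 75th percentile, the mammary medians were 0.063 under B9, 0.15 under B12 and 0.091 under B9 + B12 (all genes −0.33, −0.25 and −0.29). Leaving out each array gave liver medians of 0.038 to 0.21 under B9, −0.030 to 0.023 under B12 and 0.083 to 0.26 under B9 + B12, and mammary medians of −0.097 to 0.067, −0.011 to 0.017 and −0.024 to 0.041. The cause of these shifts was not tested.

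On the deposited table the tissue difference was −0.019 for RPLP0, −0.37 for RPLP1, −0.70 for RPLP2, −0.99 for RPSA, −1.02 for RPL3, −0.39 for RPL36A, −0.31 for RPL36AL, −1.12 for RPS27, −1.40 for RPS27L, −0.075 for RPS4Y1, −1.38 for RPS19BP1, −0.082 for RPL4, −0.95 for RPL21 and −0.68 for RPS26. RPS27L was −0.044 with the processed signal, −0.11 by the 75th percentile and −0.11 with the slide as a fixed block, and RPS19BP1 was −0.11 by the 75th percentile. Of 41 alternatives, 7 called RPS27L higher in the mammary gland, and its values reached 0.48. In the liver, RPL3L under B9 was 0.031 with the slide as a fixed block and 0.053 without Ctl cow 42. Under B9 + B12, RPL5 and RPL7 were 0.17 and 0.29 without cow 32, also with cow 57 left out, −1.01 and −1.39 without cow 38, and 0.16 and 0.22 on scan day 1 alone (chosen after seeing the data). In the mammary gland, RPLP1 under B12 was 0.0052 by the 75th percentile and RPL37A under B9 + B12 was 0.082 with the brightest probe. Naming members by the gene names printed in the scanner files was not run, since the files used here have no such column.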
